A study of Mus musculus with 14 samples.

Results

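Metabotropic glutamate receptors are described here through 6 genes, Grm2, Grm3, Grm4, Grm5, Grm7 and Grm8, which were taken by name from the 39017 gene identifiers counted in hippocampal RNA of mice. All 6 passed the filter on low counts and were among the 21298 genes tested. The TRAP libraries hold RNA bound to tagged ribosomes of parvalbumin (PV) neurons and came from 4 mice that were not defeated, 4 resilient mice and 3 susceptible mice. Another 3 libraries, the input, hold RNA of whole hippocampal homogenate from the non-defeated group. The mice of every TRAP group, non-defeated controls included, carried a Cre-dependent EGFP-L10a allele together with PV-Cre, so the tag was made wherever the Pvalb promoter drove Cre, and it was captured by translating ribosome affinity purification (TRAP). All were males of C57BL/6 background, 8 to 12 weeks old when behavioral experiments started. Resilient and susceptible mice went through chronic social defeat stress (CSDS), with 5 min of attack by a CD1 aggressor on each of 10 days. They were told apart by a social interaction ratio above or below 1 in a test 24 h later, whereas non-defeated mice were housed in pairs without aggressors. Both hippocampi of 1 mouse made 1 TRAP sample.

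Metabotropic glutamate receptors are G protein-coupled receptors that sense glutamate and act more slowly than the ion channels it opens. Group I, with Grm5 here, couples mainly to Gq and phospholipase C and sits largely on the postsynaptic side. Group II (Grm2 and Grm3) and group III (Grm4, Grm7 and Grm8) couple to Gi/o, lower adenylyl cyclase activity and often act at presynaptic terminals, where they curb transmitter release. In the hippocampus, Grm2 is known from granule cells and their mossy fibers, Grm3 is also made by astrocytes, and Grm7 is known for its place in terminals onto certain interneurons.

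The receptors are paralogs, so the coding sequences were compared for stretches that members have in common. Over the 15 pairs, the longest stretch of identical bases was 27 bases long, between Grm3 and Grm4, and the next was 26 bases long, between Grm4 and Grm7. Both are printed from the GENCODE transcripts (release 21, mm10), 5′ to 3′ on the strand of the gene, because they are the longest exact matches between coding sequences of the members.
Grm3 and Grm4: ggcttcaccatgtacaccacctgcatc
Grm4 and Grm7: tgtactgtgtatgccatcaagactcg
The first lies in exon 4 of Grm3 (chromosome 5, from 9511509 to 9511535, minus strand) and exon 9 of Grm4 (chromosome 17, from 27434587 to 27434613, minus strand). Pairs other than these shared 12 to 20 bases. Untranslated regions and near-identical stretches were not compared.

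The labels held against marker genes. In non-defeated mice, all 8 PV interneuron markers were higher in TRAP than in input, whereas 6 of 6 excitatory, 5 of 5 oligodendrocyte, 4 of 4 microglia and 5 of 6 astrocyte markers were lower (adjusted p under 0.05 in edgeR). Summed over its list, the level of excitatory markers was 639 to 848 CPM in non-defeated TRAP libraries and 1850 to 2210 CPM in input, so RNA of excitatory neurons was reduced but present. Other lists were mixed. Of 8 markers of other interneurons 2 were higher in TRAP, Sst (log2 fold change 1.61) and Npy (2.79), and 5 were lower. Of 4 endothelial markers Cldn5 was higher (1.23), with a median of 0.74 over the list, of 6 thalamic markers Ramp3 was higher (2.92), and 1 of 2 markers of oligodendrocyte precursors was lower. The libraries held from 64110214 to 94726962 counts in all. The 6 markers of thalamus, a region next to the hippocampus, did not follow the groups. Their sum was 296 and 398 CPM in the non-defeated libraries numbered 11 and 9, 729 in the resilient library numbered 7 and 49.3 to 152 in the other 8 TRAP libraries. Among input libraries it was 348 in that numbered 14, against 85.9 and 66.1. The labels give no reason for this, although all 4 libraries are numbered 7 or higher. No TRAP library numbered 1 to 6 was above 81.7 CPM, whereas those numbered 8 and 10 had 63.2 and 152. For the receptor genes, results that rest on the 4 libraries are given with and without them.

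Per kilobase of exon, Grm5 had the highest mean level of the 6 genes in each TRAP group and Grm8 the lowest. In non-defeated TRAP libraries Grm5 had 4.32 ± 0.469 RPKM (SD, n = 4). Grm3 followed with 4.01 ± 3.08, Grm2 with 2.59 ± 0.769, Grm7 with 1.5 ± 0.601, Grm4 with 1.10 ± 0.422 and Grm8 with 0.142 ± 0.0804 RPKM (SD, n = 4 each). From Grm5 down to Grm4, libraries of each gene overlapped with those of the next one, so this order is not set beyond the spread, whereas every library of Grm4 was above every library of Grm8. In susceptible mice Grm5, at 4.68 ± 0.932 RPKM (SD, n = 3), was separate from Grm2, the next gene, at 2.66 ± 0.702. Input had another order, with Grm3 at 7.21 ± 1.26 and Grm2 at 6.63 ± 0.463 above Grm5 at 5.18 ± 0.451 RPKM (SD, n = 3 each). RPKM rests on the annotated exon length, which is 3049 bp for Grm3 and 4894 to 10247 bp for the other genes.

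**Figure D1:**
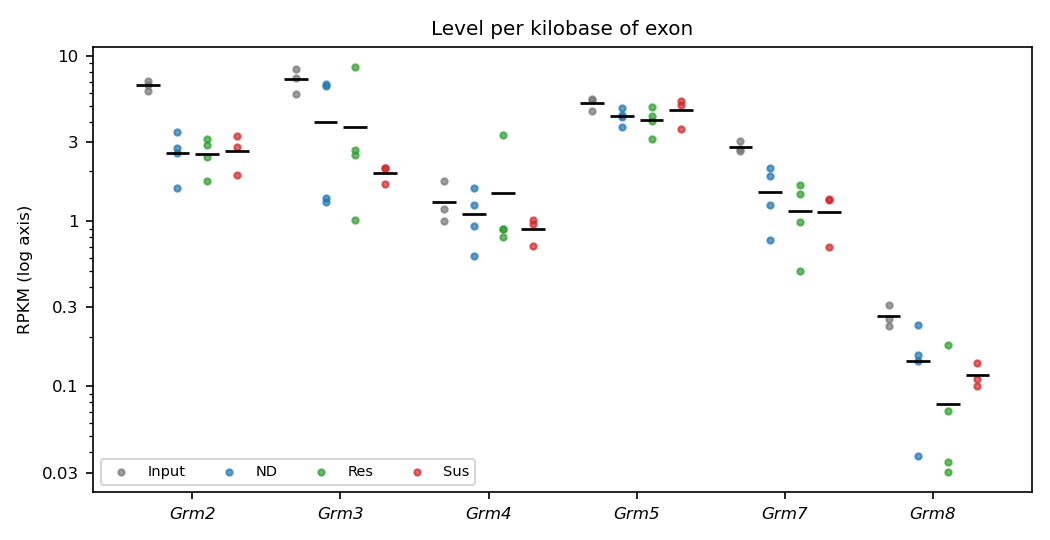
RPKM (log axis) of the 6 receptor genes, with 1 point per library, a black line at the group mean and groups in color (Input, ND for non-defeated, Res for resilient and Sus for susceptible TRAP). Grm5 lies near 4 RPKM in every TRAP group, Grm8 lies below all other genes, and Grm3 spreads from 1.02 to 8.54 RPKM among resilient libraries.

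The comparison of TRAP with input asks which receptor transcripts were enriched on ribosomes of PV neurons relative to the whole tissue. At an adjusted p under 0.05, 0 of the 6 genes were higher in TRAP of the non-defeated group and 2, Grm2 and Grm7, were lower, whereas Grm3, Grm4, Grm5 and Grm8 did not pass. Of all genes tested 55% passed, 27.4% higher and 27.6% lower, so the share of members that were lower, 2 of 6, was near that of genes in general. The median log2 fold change of the 6 genes was -0.88, against -0.04 over all genes. In bulk RNA, fewer cells of a type and less RNA per cell cannot be told apart. TRAP RNA was also captured with ribosomes and input RNA was not, and what that step contributed was not tested.

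Grm2 (ENSMUSG00000023192; chromosome 9 of mm10, from 106643095 to 106656082, minus strand), the presynaptic group II receptor of granule cells, gave the clearest difference. Its normalized CPM were 32.7, 34.6 and 30.1 in the input libraries numbered 12, 13 and 14. In TRAP of non-defeated mice they were 7.72, 12.7, 13.6 and 16.8 in the libraries numbered 1, 6, 9 and 11. No TRAP library reached the input range. The log2 fold change was -1.35 (standard error 0.24, 95% interval -1.88 to -0.83), a 2.56-fold lower level, with an adjusted p of 0.000301 from edgeR's quasi-likelihood test. The exact permutation test gave its smallest possible p (2-sided, p = 0.0286). Grm2 shares 470 bases, 9.60% of its exons, with the antisense gene Gm28111, and reads of the pair cannot be told apart without strand. Slc17a7, the vesicular glutamate transporter of excitatory terminals, had a log2 fold change of -1.88 in the same comparison.

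Grm7 (ENSMUSG00000056755; chromosome 6, from 110645581 to 111567230, plus strand), a group III receptor of presynaptic active zones, was 15.6, 16.2 and 18.1 CPM in input. The non-defeated TRAP libraries numbered 1, 6, 9 and 11 had 7.40, 4.52, 12.3 and 11.1 CPM. Every TRAP library was lower than every input library for Grm2 and Grm7, a separation that 32.5% of all genes tested had. The log2 fold change was -0.92 (standard error 0.37, adjusted p = 0.0499 in edgeR), at the edge of the threshold, and the exact permutation p was 0.0571. Without the non-defeated library numbered 6 it was -0.70 (adjusted p = 0.125 in edgeR), and the call was also lost without that numbered 1 or any single input library, and with an offset for gene length (-0.66, adjusted p = 0.128). Grm7 shares 130 bases, 2.21% of its exons, with the antisense gene Gm20387, and the same limit holds.

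Grm5 (ENSMUSG00000049583; chromosome 7, from 87584168 to 88134907, plus strand), the postsynaptic group I receptor, was 56.1, 55.3 and 47.7 CPM in input and 49.9, 43.6, 38.3 and 45.2 CPM in the non-defeated TRAP libraries numbered 1, 6, 9 and 11. The groups overlapped. The log2 fold change was -0.26 (95% interval -0.59 to 0.07, adjusted p = 0.165 in edgeR). The excitatory markers had a median of -1.79 and ran from -2.475 to -0.915, and how much Grm5 came from excitatory neurons was not tested. An offset for gene length took the Grm5 value to 0.05 (adjusted p = 0.834). Grm6, a family gene that is not one of the 6 and the receptor of retinal bipolar cells, had 0 counts in all 14 libraries, where 3 counts would be 0.0317 to 0.0468 CPM per library.

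Grm3 (ENSMUSG00000003974; chromosome 5, from 9485541 to 9725170, minus strand), the group II receptor that astrocytes also make, was 17.9, 22.5 and 25.5 CPM in input. The non-defeated TRAP libraries numbered 1 and 6 had 3.97 and 4.21 CPM, whereas those numbered 9 and 11 had 20.6 and 20.1. The first pair lay far below input and the second pair within its range. Over all 4 libraries the log2 fold change was -0.85 (standard error 0.63, adjusted p = 0.267 in edgeR). Without the 4 libraries with the highest thalamic markers, an alternative chosen after seeing the data that leaves 2 libraries in each of these groups, it was -2.31 (standard error 0.38, adjusted p = 0.000636). In that fit 3 of the 6 genes were lower, Grm2 (-1.73), Grm3 and Grm7 (-1.43). Lower and higher calls together made up 46.6% of all genes there, and the share lower alone was not counted.

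Grm4 (ENSMUSG00000063239; chromosome 17, from 27422387 to 27521403, minus strand) and Grm8 (ENSMUSG00000024211; chromosome 6, from 27275119 to 28135178, minus strand) are group III receptors. Grm4 was 5.98, 7.08 and 10.5 CPM in input and 3.67 to 9.52 CPM in non-defeated TRAP (log2 fold change -0.26, standard error 0.46, adjusted p = 0.649 in edgeR). Without the input library numbered 14 the value was 0.0090. Grm8 was the scarcest member, with 178 to 276 counts in an input library and 27 to 165 in a non-defeated TRAP library. It had 2.31, 2.52 and 3.08 CPM in input and 0.376 to 2.32 CPM in TRAP, and the groups overlapped (log2 fold change -0.91, standard error 0.55, adjusted p = 0.178 in edgeR). Grm8 holds the 96 bases of the microRNA gene Mir592.

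**Figure D2:**
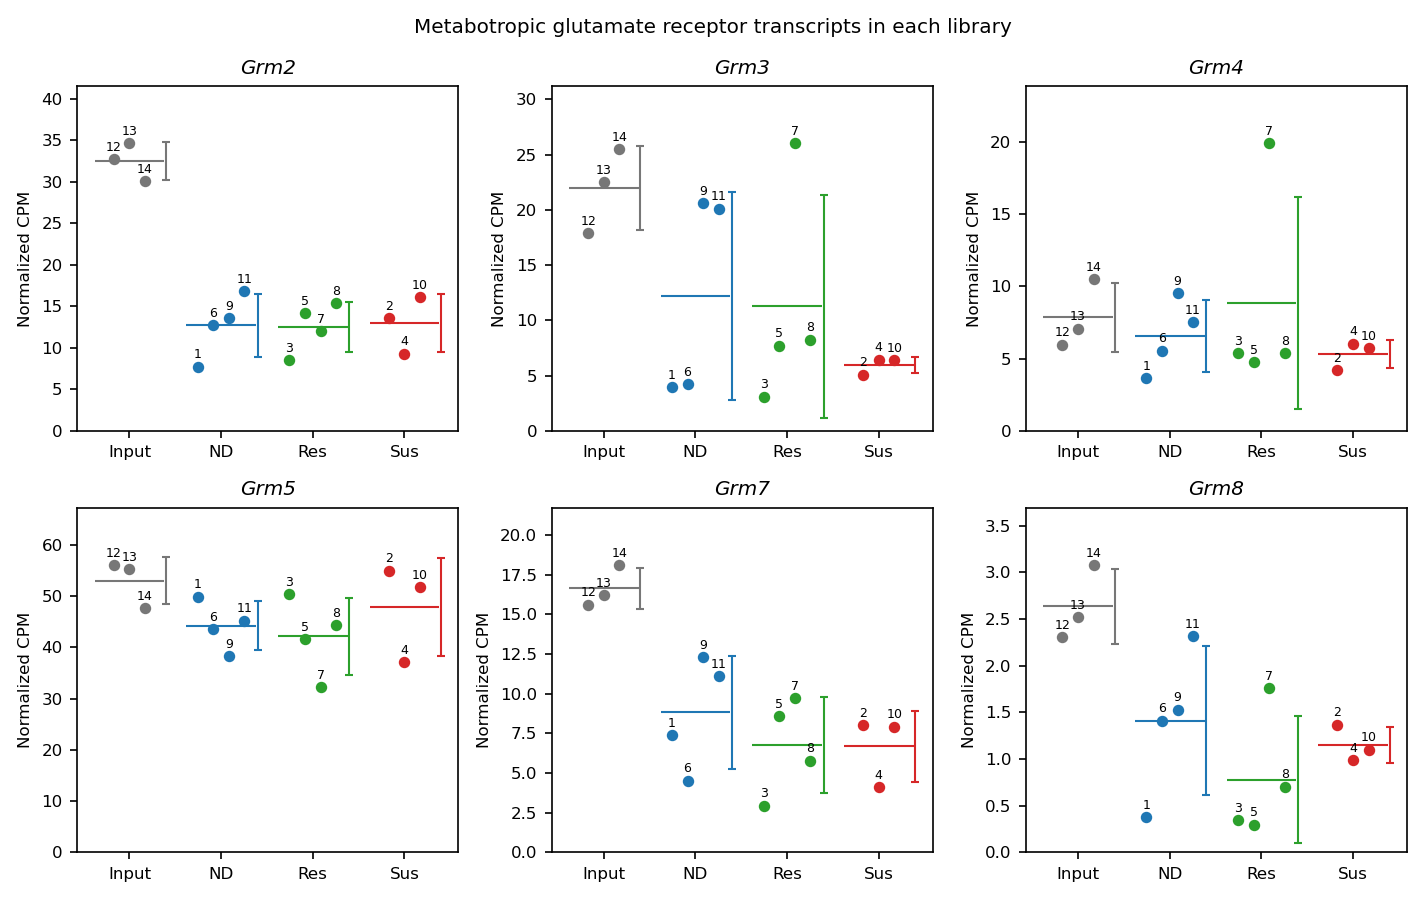
Normalized CPM of each receptor gene in the 14 libraries, by group (Input, ND for non-defeated, Res for resilient and Sus for susceptible TRAP), with the number of each library, a line at the group mean and a bar of 1 SD to its right. Grm2 is between 7.72 and 16.8 in all TRAP libraries and at least 30.1 in input, whereas among TRAP libraries Grm3 and Grm4 are highest in those numbered 7, 9 and 11.

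The spread of Grm3, Grm4, Grm7 and Grm8 among TRAP libraries went with the thalamic markers. Of the 6 members, 4 were higher in each of the 3 TRAP libraries with the most thalamic markers than in any of the other 8, a pattern that 3.58% of all genes tested had. For Grm3 these were 20.1 to 26.0 against 3.10 to 8.24 CPM, and for Grm4 7.54 to 19.9 against 3.67 to 6.05. Grm7 had 9.72 to 12.3 against 2.94 to 8.58 CPM, and Grm8 1.53 to 2.32 against 0.299 to 1.41. Grm2 (12 to 16.8 against 7.72 to 16.1) and Grm5 (32.3 to 45.2 against 37.1 to 55.0) overlapped. In input, Grm3, Grm4, Grm7 and Grm8 were also highest in the library numbered 14, and Grm2 and Grm5 lowest. That is a single library of 3, and the share of all genes highest in it was not counted.

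The 3 libraries were picked by the sum of the 6 thalamic markers, so higher markers in them are no separate result. Of these markers 5 were above in each of the 3 libraries, and the sixth, Tnnt1, overlapped. Tcf7l2, a transcription factor of thalamic neurons, was 33.0 to 132 CPM in them and 2.95 to 19.4 in the other 8. No thalamic marker was at 0. Astrocyte (246 to 332 against 201 to 432 summed CPM), excitatory (666 to 848 against 484 to 1030) and PV interneuron markers (4070 to 4350 against 3310 to 4590) overlapped between these libraries. Markers of other interneurons were lower, at 459 to 483 against 488 to 901. The libraries were set apart after the data had been seen, and whether thalamic tissue contributed the receptor transcripts was not tested.

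**Figure D3:**
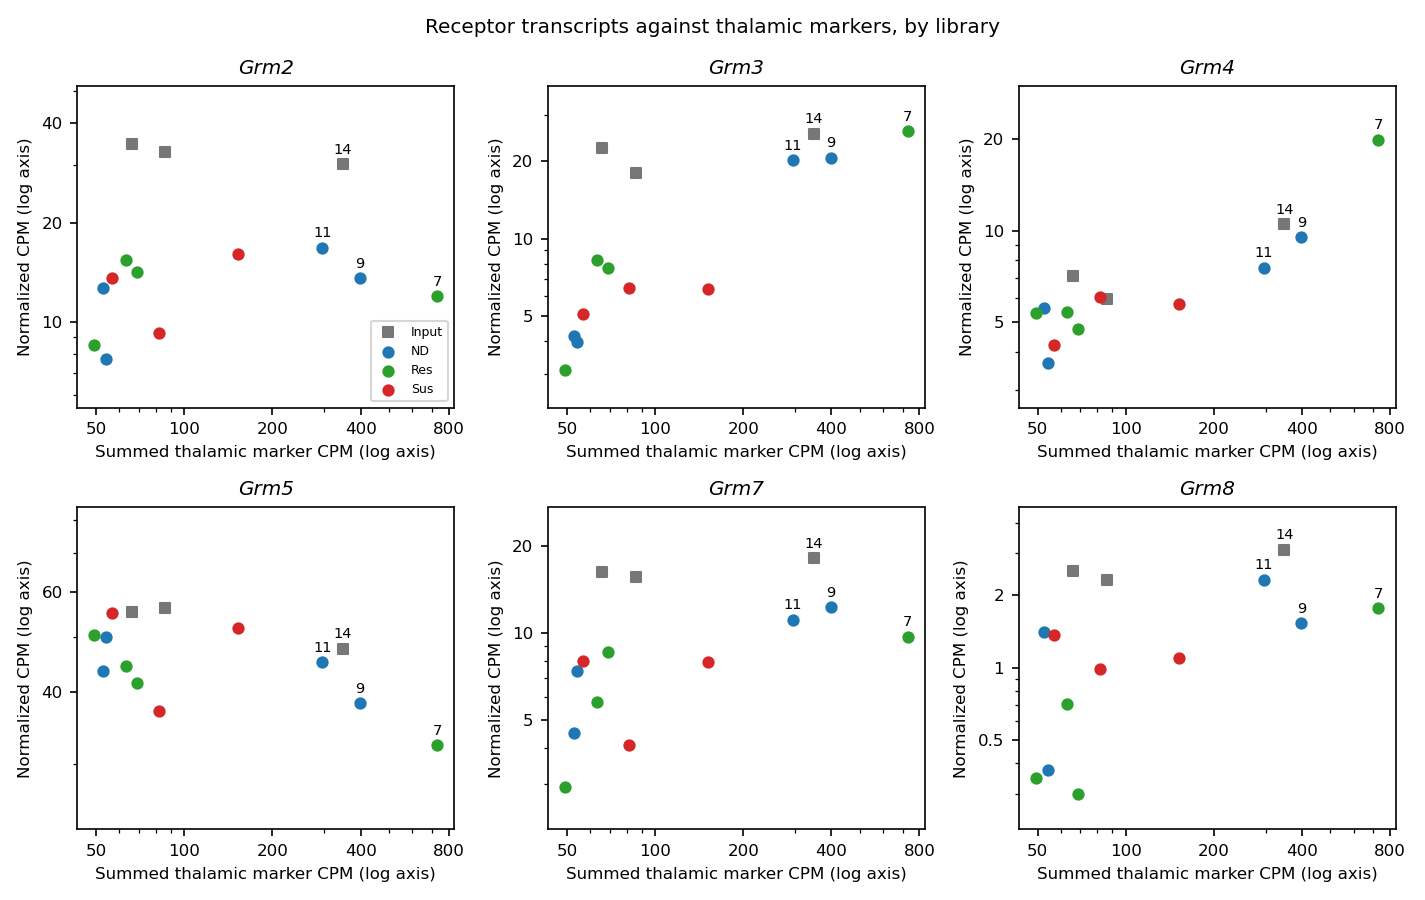
Normalized CPM of each receptor gene against the summed CPM of 6 thalamic markers (both log axes), with 1 point per library, squares for input and circles for TRAP, colored by group, and the libraries numbered 7, 9, 11 and 14 marked. In TRAP, Grm3 is 20.1 to 26.0 CPM in the 3 libraries with a marker sum of 296 to 729 and at most 8.24 in the others, whereas Grm2 and Grm5 overlap.

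Between stress groups, which were compared to relate PV neuron transcripts to resilience and susceptibility, no receptor gene differed at an adjusted p under 0.05 or at an unadjusted p under 0.05 in edgeR. DESeq2 and the likelihood ratio test also called 0 of the 6 in each comparison at an adjusted p under 0.05. Over all genes, 0% in resilient against non-defeated mice, 0.0376% in susceptible against non-defeated mice and 1.89% in susceptible against resilient mice passed the adjusted threshold. At the unadjusted threshold these shares were 4.38%, 13.3% and 20.9%. The groups of each receptor overlapped in all 3 comparisons, whereas groups did not overlap for 2.35%, 8.62% and 15.1% of all genes. The first 2 comparisons share the same non-defeated libraries.

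Grm2 and Grm5 gave the narrowest intervals. Grm2 was 8.54, 14.2, 12 and 15.4 CPM in the resilient libraries numbered 3, 5, 7 and 8 and 13.6, 9.29 and 16.1 CPM in the susceptible libraries numbered 2, 4 and 10. Its log2 fold change was -0.02 in resilient (95% interval -0.51 to 0.47) and 0.03 in susceptible mice (-0.49 to 0.56) against non-defeated mice, and 0.05 between the stressed groups (-0.48 to 0.58). Grm5 was 50.4, 41.6, 32.3 and 44.4 CPM in resilient mice and 55.0, 37.1 and 51.8 CPM in susceptible mice, in the same order of libraries. For Grm5 the fitted difference on the log2 scale was 0.19 between susceptible and resilient mice (95% interval -0.14 to 0.52, adjusted p = 0.530 in edgeR) and 0.12 between susceptible and non-defeated mice (-0.21 to 0.45, adjusted p = 0.766). A 2-fold change of either gene lies outside its intervals, whereas a change that lies within them cannot be told from the spread.

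Grm3 had the most negative fitted values of the 6 genes in susceptible mice, with 5.10, 6.45 and 6.37 CPM in the libraries numbered 2, 4 and 10. The resilient libraries numbered 3, 5, 7 and 8 had 3.10, 7.70, 26.0 and 8.24 CPM. No susceptible library was among those with the most thalamic markers. The log2 fold change was -1.03 against non-defeated (95% interval -2.44 to 0.38, adjusted p = 0.504 in edgeR) and -0.92 against resilient mice (-2.32 to 0.48, adjusted p = 0.457). Without the 4 libraries high in thalamic markers these values were 0.56 and -0.09 (adjusted p = 0.905 and 0.911), and resilient against non-defeated mice went from -0.11 to 0.65. Split by sample number, susceptible minus non-defeated mice was 0.48 in log2 CPM among numbers 1 to 6 (2 against 2 libraries) and -1.67 among numbers 7 to 11 (1 against 2). The 2 non-defeated libraries in the second range are those high in thalamic markers, so the split is not a separate check.

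Grm4 was 5.37, 4.76, 19.9 and 5.39 CPM in the resilient libraries numbered 3, 5, 7 and 8 and 4.22, 6.05 and 5.74 CPM in susceptible mice. Its values changed sign without the library numbered 7. The log2 fold change was 0.43 in resilient against non-defeated mice and -0.73 in susceptible against resilient mice (adjusted p = 1 and 0.395 in edgeR). Without that library the values were -0.35 and 0.04, and without the 4 libraries high in thalamic markers 0.18 and 0.04. Grm7 was 2.94 to 9.72 CPM in resilient and 4.10 to 8.01 CPM in susceptible mice, with log2 fold changes of -0.38 and -0.40 against non-defeated mice (adjusted p = 1 and 0.670). Grm8 was 0.347, 0.299, 1.76 and 0.706 CPM in resilient mice and 1.37, 0.988 and 1.10 CPM in susceptible mice, again in the order of library numbers. Its value between the stressed groups was 0.57 (95% interval -0.65 to 1.78, adjusted p = 0.616), and 1.35 without the 4 libraries high in thalamic markers (unadjusted p = 0.0162, adjusted p = 0.205).

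**Figure D4:**
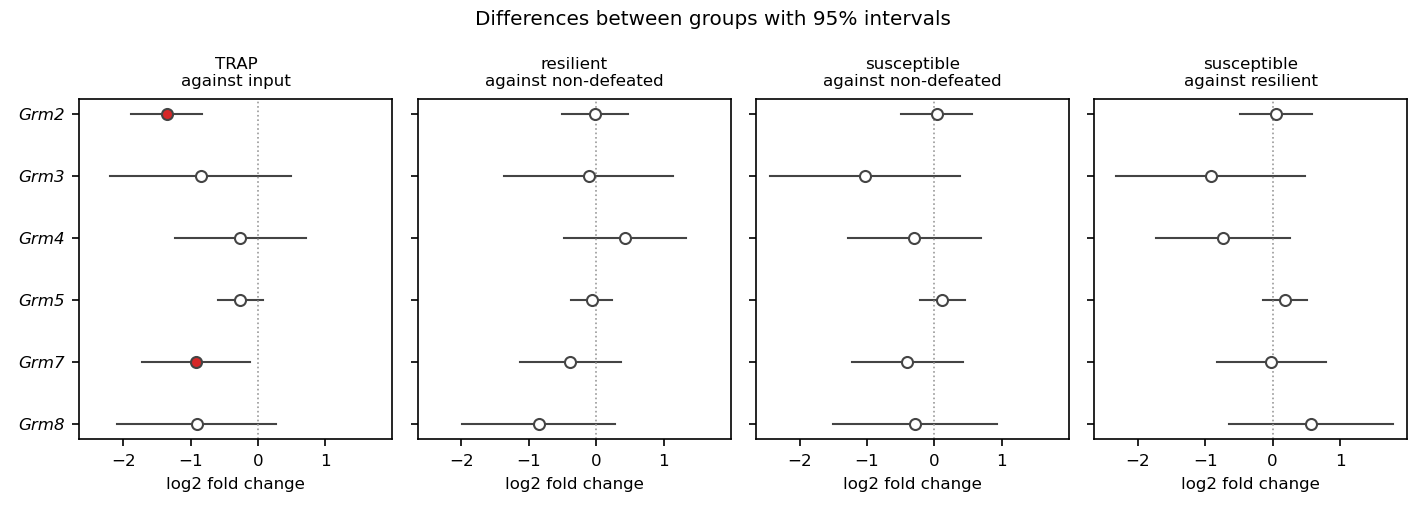
Log2 fold change of each receptor gene in the 4 comparisons, with 95% intervals from the edgeR fit of all 14 libraries, and filled points where the adjusted p was under 0.05. Grm2 (-1.35) and Grm7 (-0.92) in TRAP against input are the filled points, and every interval between stress groups holds 0.

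Genes that carry the receptors' signals were taken from lists. Of 16 genes for group I coupling and scaffolds, 1 was higher and 10 were lower in TRAP than in input, with a median log2 fold change of -0.65. Of all genes tested, 27.4% were higher and 27.6% lower. Shank1, a postsynaptic scaffold, rose from 92.2 ± 8.18 CPM in input to 228 ± 31.6 CPM in TRAP (log2 fold change 1.31, adjusted p = 1.05e-05 in edgeR). Homer3, an adaptor that binds group I receptors (log2 fold change -1.38, adjusted p = 7.45e-07 in edgeR), and Dgkz, which converts diacylglycerol (-1.18, adjusted p = 5.53e-07), fell. Of 10 genes for coupling and partners of group II and III receptors, 1 was higher and 6 were lower. Grip1, a PDZ scaffold, rose (1.21 on the log2 scale, edgeR adjusted p = 2.01e-07), whereas Grasp, a scaffold that binds group I and II receptors, fell by 1.51 (adjusted p = 6.28e-06) and Gnai2, a Gi subunit, fell by 0.75 (adjusted p = 1.17e-05).

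Of 7 genes that limit G protein signals, 3 were higher and 3 lower in TRAP than in input, where 27.4% and 27.6% of all genes were. Rgs2, which speeds the shut-off of Gq, rose (log2 fold change 0.92, adjusted p = 5.10e-06 in edgeR), as did Arrb1, an arrestin (0.59, adjusted p = 0.000229). Rgs7 (-0.72, adjusted p = 0.00101) and Grk2, a receptor kinase (-0.25, adjusted p = 0.00642), fell. Of 8 genes for the supply and clearance of glutamate 3 were lower and 0 higher, led by Slc17a7 and by Slc1a2, the astrocytic transporter, which fell by 1.80 (adjusted p = 8.11e-06), and 5 of the 8 passed in DESeq2, where 52.3% of all genes with an adjusted p passed. These 2 genes are also in the lists of excitatory and astrocyte markers, respectively.

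Between stress groups 0 of the 41 genes on these lists had an adjusted p under 0.05 in the quasi-likelihood test. Susceptible against resilient mice gave 2 on the group I list without the resilient library numbered 5, where 0.922% of all genes passed. The same comparison gave 1 on the list of genes that limit G protein signals without the susceptible library numbered 10, where 4.88% did. Rgs2 came nearest, at 96.8 ± 10.7 CPM in susceptible (SD, n = 3) and 72.3 ± 6.43 CPM in resilient mice (SD, n = 4). The difference was 0.42 on the log2 scale (standard error 0.10, edgeR adjusted p = 0.0515). Every susceptible library was above every resilient one (exact permutation test, 2-sided, p = 0.0286, the smallest possible), which was so for 7.71% of all genes. On the same list 3 genes had every susceptible library below every resilient one, as did 7.44% of all genes. These were Rgs7 (log2 fold change -0.50, adjusted p = 0.0940 in edgeR), Rgs4 (-0.46, adjusted p = 0.375) and Grk2 (-0.14, adjusted p = 0.272), which are named for this comparison after their values were seen. For Rgs4 the resilient libraries ran from 162 to 372 CPM and the susceptible ones from 151 to 161 (exact permutation test, 2-sided, p = 0.371). The 372 CPM was in the library numbered 7, high in thalamic markers, and the Rgs4 difference without it is not given. Slc1a1, a neuronal glutamate transporter, also had every susceptible library below every resilient one (-0.38, adjusted p = 0.137). The groups of Pick1, a PDZ protein that binds Grm7, overlapped (-0.25, adjusted p = 0.187). In that comparison the likelihood ratio test called 2 genes of this list and 2 of the group I list, and DESeq2 called 1 of each and 1 of the glutamate supply list. Of all genes with an adjusted p, these tests called 5.16% and 6.12%, against 1.89% in the quasi-likelihood test. In data simulated for this comparison, 25.6% and 30.9% of their calls were false, against 6.09% in the quasi-likelihood test. The simulation drew counts independently around 1 mean per gene, with 200 genes changed. These shares depend on that setting and need not hold for the real libraries. Shank1 was 311 ± 62.7 CPM in susceptible and 211 ± 39.7 CPM in resilient mice (log2 fold change 0.56, adjusted p = 0.0720), with overlap between the groups. Against non-defeated mice, Shank3 had 0.48 (adjusted p = 0.248), Rgs7 -0.46 (adjusted p = 0.248) and Gnaz, a Gi/o subunit, -0.16 (adjusted p = 0.349) in susceptible mice, and Slc1a2 had 0.45 (adjusted p = 0.380). DESeq2 called 1 gene of the group I list there, where it called 0.624% of all genes with an adjusted p. In resilient against non-defeated mice the smallest unadjusted p on each list gave Rgs2 (-0.21), Homer1 (-0.19), Pick1 (0.14) and Slc1a1 (0.16), each at an adjusted p of 1 in edgeR.

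The protein-coding genes whose profile over the 14 libraries was most like that of a receptor were found by the root mean square difference of log2 CPM, each profile centered on its mean, among 15882 genes. For Grm2 they were Cpd (0.14) and Icam5 (0.16), where the median over all genes was 0.71. Grm3 was nearest to Pmp22 (0.30) and Adarb2 (0.37), and Grm4 to Necab3 (0.26) and Rgs4 (0.27), with medians of 1.09 and 0.70. For Grm7 they were Itgb4 (0.22) and Crim1 (0.26), and for Grm8, where no profile came close, Mmp14 (0.51) and Egfem1 (0.52). Grm5 varied little, and its nearest profiles were those of Hist1h2ah (0.10) and Ccdc86 (0.13), against a median of 0.45.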

How the data were processed

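TRAP RNA of PV neurons and input RNA of the hippocampus were sequenced, and the authors deposited raw counts of reads per gene in 14 libraries, without normalization. Before that, fastp trimmed the reads and STAR placed them on mm10 (2.5.3a in the submitters' processing notes, which also name HTSeq). The study's methods give another version of STAR, and no annotation release or strand setting is given in the sources used here. Samples were grouped by their titles. Each TRAP library is 1 mouse, and nothing says which mice gave the input libraries. The edgeR p-values against input therefore rest on the spread between libraries within groups, which was estimated over all 14. Replicates differed by more than counting error (chi-square per degree of freedom at least 13.2).

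Genes were named from GENCODE release 21 (37693 of 39017 identifiers). Counts were fitted in R 4.3.3 with edgeR 4.0.16, in 1 quasi-likelihood model of all 14 libraries, with TMM factors and the default filter on low counts (21298 genes), 2-sided, with Benjamini-Hochberg adjustment over all genes and a threshold of 0.05. RPKM used TMM-scaled totals and the union of exons. Permutation tests used log2 CPM with a prior count of 2. The fits were first tested on simulated data. There, 200 genes were changed 2-fold in susceptible mice, and the quasi-likelihood test against resilient mice called 54% of them.

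Alternatives were the likelihood ratio test, DESeq2 1.42.0, RLE factors, 2 other filters, fewer groups, an offset for gene length, the sample number as a covariate and leaving out each library. The members and gene lists were chosen with earlier results of these data known. Named are all members, in each list and comparison up to 2 genes per direction with the smallest adjusted p under 0.05 or else the gene with the smallest p, and the 2 genes most like each member. The members' protein sequences were not used here, and 1 gene that the naming rule covers is not reported here.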

Additional observations from a re-analysis of the deposited data

Results flagged for a closer look

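In groups of 4 libraries, 3 of 30 sets of values held a library far from the other 3, where chance gives about 1 in 20. The resilient library numbered 7 gave 2 of them, with Grm4 at 19.9 CPM and thalamic markers at 729 summed CPM. The resilient library numbered 3 had 814 summed CPM of markers of other interneurons, the highest of its group.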

How the results depend on the processing

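No paired analysis was possible, because each sample number occurs once and nothing says which mice gave the input libraries. The fall of Grm2 in TRAP against input passed the adjusted threshold in all 8 alternatives (log2 fold change from -1.73 to -1.13) and in each of the 7 fits with 1 library left out (-1.51 to -1.18). The number of receptor genes lower in TRAP was 1 with the offset for gene length and 1 to 2 with a library left out, since Grm7 then lost its call (-0.66 with the offset, -1.12 to -0.70 with a library left out). Without the 4 libraries with the highest thalamic markers Grm3 was also lower (-2.31). Between stress groups 0 members were called in every alternative and in every fit with a library left out.

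Uncalled values changed sign in several fits. With the offset for gene length, TRAP against input was 0.049 for Grm5, and susceptible against resilient mice were 0.067 for Grm7. With the sample number as a covariate, resilient against non-defeated mice were 0.10 for Grm2 and 0.27 for Grm3, susceptible against non-defeated mice 0.28 for Grm8 and susceptible against resilient mice 0.042 for Grm7. Without the 4 libraries, resilient against non-defeated mice were 0.33 for Grm2 and 0.65 for Grm3, susceptible against non-defeated mice 0.56 for Grm3, 0.22 for Grm4, 0.17 for Grm7 and 0.36 for Grm8, and susceptible against resilient mice 0.037 for Grm4 and 0.20 for Grm7. The cause was not tested.

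With 1 library left out, TRAP against input ran from -0.49 to 0.0090 for Grm4. Resilient against non-defeated mice ran from -0.20 to 0.14 for Grm2, -0.94 to 0.26 for Grm3, -0.34 to 0.67 for Grm4 and -0.17 to 0.039 for Grm5. Susceptible against non-defeated mice ran from -0.15 to 0.23 for Grm2 and -0.60 to 0.061 for Grm8, and susceptible against resilient mice from -0.13 to 0.24 for Grm2, -0.94 to 0.045 for Grm4 and -0.27 to 0.24 for Grm7. Depth limits Grm8 most, at 25 counts in its lowest library.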
